A study of Homo sapiens with 8 samples.

Results

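The MAP kinase dual-specificity phosphatases (MKPs) were taken by name from the gene count table: DUSP1, DUSP2, DUSP4, DUSP5, DUSP6, DUSP7, DUSP8, DUSP9, DUSP10 and DUSP16, 10 of its 37441 genes. Summed over the 8 libraries, all 10 reached the minimum of 10 counts that 18203 genes passed in all, and they were compared by the MAP kinases they prefer as substrates. RNA came from NCI-H1581 and NCI-H1703, established non-small cell lung cancer (NSCLC) lines sensitive to the FGFR inhibitor CPL304110, and from the resistant variants NCI-H1581R and NCI-H1703R, with 2 replicate libraries for each of the 4 variants. The sensitive cells had not been selected with the drug. The resistant variants had been grown for months in CPL304110 that was raised from 50 nM to 2.5 µM for NCI-H1581R and to 5 µM for NCI-H1703R, and each is a single selected population. NCI-H1581 was kept in DMEM/F12 and NCI-H1703 in RPMI 1640, so that cell line and medium cannot be told apart. The sources used here do not say whether the medium at harvest contained the inhibitor, so that lasting selection and the drug at harvest cannot be told apart either. The replicates were repeated seedings of the same cells, and p-values measure the spread between such seedings.

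MKPs switch off MAP kinases by removing the phosphate from both the threonine and the tyrosine of the activation loop. DUSP5 (in the nucleus) and DUSP6, DUSP7 and DUSP9 (mainly in the cytoplasm) prefer ERK. DUSP1, DUSP2 and DUSP4 are nuclear enzymes that act on ERK, p38 and JNK, and DUSP8, DUSP10 and DUSP16 prefer p38 and JNK. FGFR drives ERK through RAS, and ERK activity in turn raises the transcription of several MKP genes, DUSP6 above all, so that their RNA is widely read as a trace of ERK output and the enzymes close a negative feedback loop. DUSP1 is an immediate early gene that also answers to stress and cyclic AMP.

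The promoter table from RefSeq (GRCh38.p14) matched 8 of the 10 members, and held no entry for DUSP4 and DUSP5. The stretch just before the start of transcription was searched on both strands for 6 motifs. These were the cyclic AMP response element (CRE, TGACGTCA) that CREB binds, the AP-1 site bound by FOS and JUN proteins (TGANTCA), and the ETS site of the ERK-driven ETS factors (CCGGAAG). The others were the TATA box (TATAAA), the GC box bound by SP1 and related factors (GGGCGG), and the CArG box of serum response factor, given here by name alone. In the matched members 0 matches shared bases with a match of another motif. DUSP1 and DUSP8 were the members with a CRE, at 1 and 2 places, and 2.03% of the 27305 genes with a promoter in the table had one. DUSP6 held none of the 6 motifs in this window. These 3 promoters are shown because DUSP1 and DUSP8 are the called members of NCI-H1703R outside the ERK-selective group, while DUSP6 was lower in both resistant variants. Capitals mark the CRE and, in DUSP1, the TATA box.
DUSP1, chr5:172771196-172771445, minus strand: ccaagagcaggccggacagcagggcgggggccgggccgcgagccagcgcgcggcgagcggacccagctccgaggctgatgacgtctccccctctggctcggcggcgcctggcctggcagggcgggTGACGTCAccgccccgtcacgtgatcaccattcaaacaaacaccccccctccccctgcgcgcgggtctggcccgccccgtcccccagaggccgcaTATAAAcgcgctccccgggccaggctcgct
DUSP8, chr11:1572272-1572521, minus strand: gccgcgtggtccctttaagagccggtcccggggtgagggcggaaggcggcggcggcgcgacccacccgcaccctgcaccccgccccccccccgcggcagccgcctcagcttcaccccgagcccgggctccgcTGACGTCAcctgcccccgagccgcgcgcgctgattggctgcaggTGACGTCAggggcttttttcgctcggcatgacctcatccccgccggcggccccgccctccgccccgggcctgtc
DUSP6, chr12:89352502-89352751, minus strand: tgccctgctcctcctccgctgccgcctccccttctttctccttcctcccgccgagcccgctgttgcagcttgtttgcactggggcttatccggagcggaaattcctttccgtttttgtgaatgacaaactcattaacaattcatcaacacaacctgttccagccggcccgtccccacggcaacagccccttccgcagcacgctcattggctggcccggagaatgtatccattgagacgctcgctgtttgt
The CRE of DUSP1 began 125 bases before the start and its TATA box 30 bases before it, and those of DUSP8 began 118 and 74 bases before the start. A TATA box was found before 13.0% of these genes and a GC box before 46.2%, the latter in 7 of the 8 matched members. AP-1 (8.06% of genes), ETS (10.2%) and CArG box (1.44%) had no match in any of the 8 members. A match is a description of the letters and no measure of binding.

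Library totals ranged from 33800389 to 40031710 counts, which gave 3 counts a value of 0.0749 to 0.0897 CPM (counts relative to the library total, scaled by TMM factors over the 8 libraries). This value is the floor used here and covers counting error only. EPCAM and CDH1, which define epithelial cells, reached at most 15.9 and 1.32 CPM. The 5 epithelial markers (EPCAM, CDH1, KRT8, KRT18, KRT19) summed to 19.0 to 22.7 CPM in NCI-H1581, 13.1 to 15.1 in NCI-H1581R, 73.3 to 75.6 in NCI-H1703 and 6.76 to 8.41 in NCI-H1703R. In NCI-H1703 most of that sum was KRT18, which fell with resistance. The 4 fibroblast markers (COL1A1, COL1A2, PDGFRB, DCN) summed to 2150 to 2442 CPM in NCI-H1581 and 1015 to 1035 in NCI-H1581R, most of it COL1A2, against 2.57 to 3.03 in NCI-H1703 and 23.5 to 27.8 in NCI-H1703R. Of the immune markers PTPRC was at 0.40 CPM or less in all libraries, and CD68, a lysosomal gene, made up nearly all of a sum of 15.1 to 97.0 CPM. Endothelial markers summed to at most 0.45 CPM. The epithelial, fibroblast and immune sums differed between the same variants as the MKPs, and their part in the results was not tested.

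The first comparison asked which MKPs changed when NCI-H1581 became resistant. DUSP6 fell and DUSP16 rose in NCI-H1581R, and the other 8 members did not pass the test (edgeR's quasi-likelihood test, Benjamini-Hochberg adjusted p under 0.1 over all 18203 genes). That is 1 of 10 lower and 1 of 10 higher, where 7.44% of all genes tested were called lower and 7.63% higher. The median log2 fold change was -0.34 over the 9 members other than DUSP10, which was under the floor in this line, and 0.04 over all genes tested.

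The same question was put to NCI-H1703. All 4 ERK-selective members fell, together with DUSP1 and DUSP8 in NCI-H1703R, while DUSP2, DUSP4, DUSP10 and DUSP16 did not pass the test. The 6 lower members of 10 stood against 7.67% of all genes called lower. None of the 10 was called higher by edgeR, with 0 at an unadjusted p under 0.05 and 0 by DESeq2, where 7.06% of all genes were. The median log2 fold change over the 10 members was -1.08, and that over all genes was 0.00. These calls rested on both sensitive libraries: without NCI-H1703 replicate 1 or without NCI-H1703 replicate 2, DUSP5 alone of the 10 was still called lower, in fits that called 293 and 274 genes in place of 2683.

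**Figure D1:**
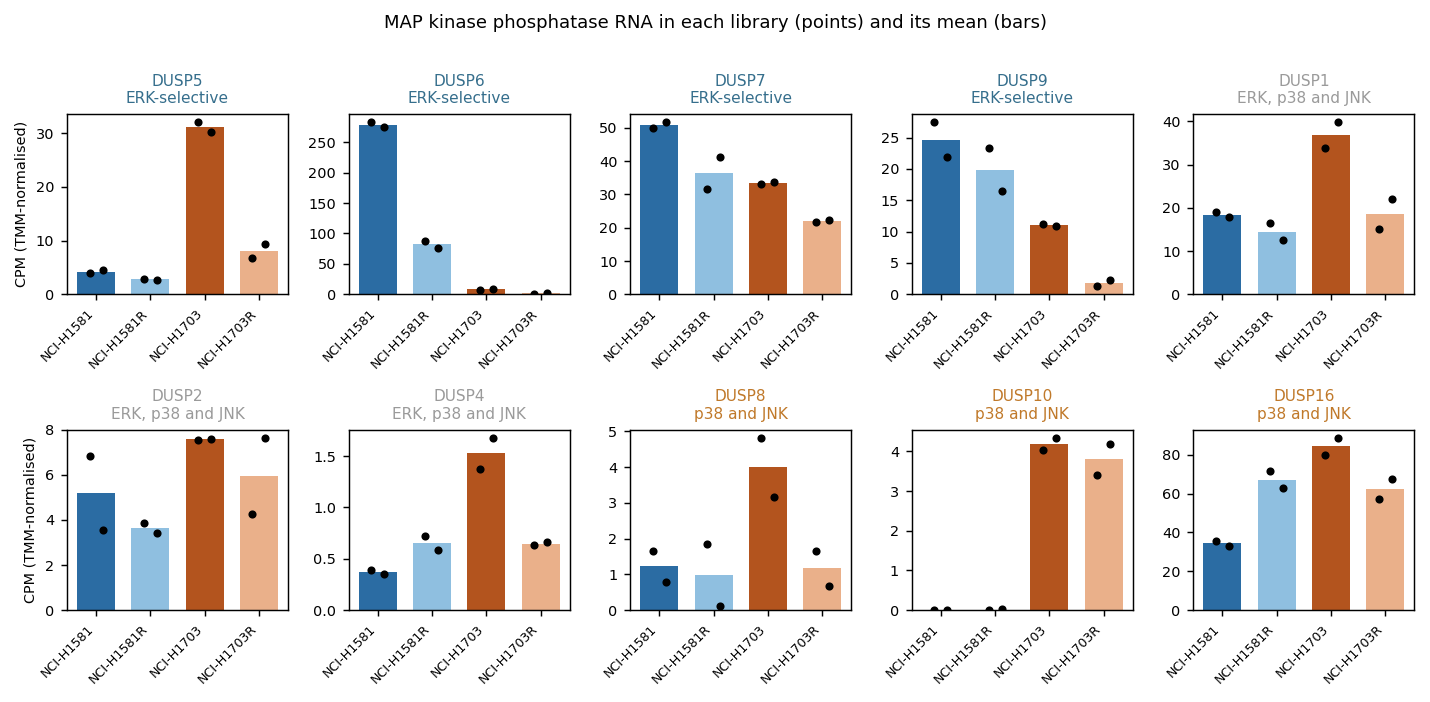
CPM (linear axis from 0, TMM-normalised) of each MKP in the 4 variants; bars are means of 2 replicates and points are the single libraries. DUSP6 stood at 275 to 282 CPM in NCI-H1581 and at 1.19 to 1.93 CPM in NCI-H1703R, and DUSP10 was at 0 or 1 count in the 4 libraries of NCI-H1581 and NCI-H1581R.

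Among the ERK-selective members, DUSP6 is the cytoplasmic ERK phosphatase best known as a feedback gene of FGFR signalling. Its 2 replicates stood at 282 and 275 CPM in NCI-H1581 and fell to 88.2 and 76.1 CPM in NCI-H1581R, while NCI-H1703 had 6.76 and 9.33 CPM and NCI-H1703R 1.19 and 1.93 CPM. In each line the resistant libraries lay below the sensitive ones without overlap, and both NCI-H1581R libraries lay above both NCI-H1703 libraries. It fell 3.37-fold in NCI-H1581R (log2 fold change -1.75, SE 0.17, adjusted p = 0.00134) and 5.03-fold in NCI-H1703R (log2 fold change -2.33, SE 0.33, adjusted p = 0.0137), both by edgeR. DUSP6 was the only member called lower in both lines, and the difference between its changes (log2 -0.60, SE 0.33) did not pass the test (adjusted p = 0.337). In NCI-H1703 the call was lost without either sensitive replicate (adjusted p = 0.114 and 0.163), whereas in NCI-H1581 it held in all 12 alternatives. An annotated gene on the opposite strand shares 1105 of the 3859 exon bases of DUSP6 (chr12:89347235-89352501, GENCODE positions on GRCh38 here and for the other members), and the strand setting of the counts is not given in the sources used here, so a part of these counts could belong to that gene.

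DUSP5 (chr10:110497907-110511533) is the nuclear ERK phosphatase, itself induced by ERK. It had 3.89 and 4.44 CPM (NCI-H1581), 2.92 and 2.64 (NCI-H1581R), 32.0 and 30.2 (NCI-H1703), and 6.69 and 9.32 (NCI-H1703R). NCI-H1703 stood far above the other 6 libraries, and NCI-H1703R lay above both NCI-H1581 variants without overlap. It fell 3.80-fold in NCI-H1703R (log2 -1.93, SE 0.17, edgeR adjusted p = 0.00303), while its value in NCI-H1581R (log2 -0.58, SE 0.31) did not pass (adjusted p = 0.321).

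DUSP9 (chrX:153642492-153651326) is a cytoplasmic ERK phosphatase. Its CPM was 27.4 and 21.9 (NCI-H1581), 23.3 and 16.5 (NCI-H1581R), 11.2 and 10.9 (NCI-H1703), and 1.40 and 2.27 (NCI-H1703R). The ranges of the 2 NCI-H1581 variants overlapped, and those of the 2 NCI-H1703 variants were far apart. DUSP9 had the lowest log2 fold change of the 10 members in NCI-H1703R, a fall of 5.89-fold (log2 -2.56, SE 0.24, edgeR adjusted p = 0.00415), against a value of log2 -0.30 (SE 0.23, adjusted p = 0.508) in NCI-H1581R.

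DUSP7 (chr3:52048919-52056571), a close relative of DUSP6, had 49.9 and 51.6 CPM (NCI-H1581), 31.6 and 41.2 (NCI-H1581R), 33.1 and 33.6 (NCI-H1703), and 21.6 and 22.4 (NCI-H1703R). Resistant libraries lay below sensitive ones in both lines. The replicates of NCI-H1703 and of NCI-H1703R were tight, and the 1.48-fold fall passed the test (log2 -0.57, SE 0.10, edgeR adjusted p = 0.0273). In NCI-H1581R the value was log2 -0.47 (SE 0.19), which did not pass (adjusted p = 0.204) in the 4-library fit but did without NCI-H1581R replicate 2 (log2 -0.69, adjusted p = 0.0249).

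The members that act on ERK, p38 and JNK were led by DUSP1 (chr5:172768096-172771195), the stress-inducible immediate early phosphatase. DUSP1 had 19.0 and 17.9 CPM (NCI-H1581), 16.5 and 12.5 (NCI-H1581R), 33.8 and 39.8 (NCI-H1703), and 15.0 and 22.1 (NCI-H1703R). NCI-H1703 stood above the other 6 libraries, and the resistant libraries lay below the sensitive ones in both lines. It fell 1.94-fold in NCI-H1703R (log2 -0.96, SE 0.20, edgeR adjusted p = 0.0412), and its value in NCI-H1581R was log2 -0.34 (SE 0.21, adjusted p = 0.405). Its promoter, with the CRE and the TATA box in capitals, is printed above.

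DUSP4, a nuclear phosphatase also induced by ERK, was near the lower end of detection, with 13 and 14 counts (NCI-H1581), 27 and 23 (NCI-H1581R), 51 and 56 (NCI-H1703), and 24 and 25 (NCI-H1703R) (0.35 to 1.67 CPM). Its libraries did not overlap between variants in either line, and the order was opposite: resistant above sensitive in NCI-H1581, below it in NCI-H1703. Neither value passed the test (log2 0.83, SE 0.61, edgeR adjusted p = 0.482, and log2 -1.20, SE 0.41, adjusted p = 0.147). With the replicate number as a block the value in NCI-H1703 did pass (log2 -1.20, adjusted p = 0.0501), in a fit that called 16.7% of all genes lower, and so it did with a minimum of 10 counts in every library (log2 -1.21, adjusted p = 0.0669). DUSP2 (chr2:96143169-96145440), a nuclear phosphatase known mainly from immune cells, had 3.40 to 7.63 CPM over the 8 libraries, and its variants overlapped in both lines (log2 -0.49, SE 0.38, adjusted p = 0.504 in NCI-H1581R and log2 -0.32, SE 0.28, adjusted p = 0.568 in NCI-H1703R).

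DUSP16 (chr12:12473282-12562863), the most abundant of the p38 and JNK phosphatases here, was the member that rose. It had 35.6 and 33.1 CPM (NCI-H1581), 71.6 and 62.8 (NCI-H1581R), 79.9 and 88.5 (NCI-H1703), and 57.2 and 67.5 (NCI-H1703R). NCI-H1581 was the low variant, and NCI-H1581R overlapped NCI-H1703R. The rise in NCI-H1581R was 1.97-fold (log2 0.98, SE 0.17, edgeR adjusted p = 0.0144), a call that was lost without NCI-H1581 replicate 1 (adjusted p = 0.175) or NCI-H1581 replicate 2 (adjusted p = 0.221). In NCI-H1703R its value was log2 -0.40 (SE 0.12) with an adjusted p of 0.101, and it was called lower in 5 of 12 alternatives, among them the replicate number as a block (adjusted p = 0.00171), DESeq2 (adjusted p = 0.0275) and a minimum of 10 counts in every library (adjusted p = 0.0445).

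DUSP10 (chr1:221701424-221742089), a p38 and JNK phosphatase known from innate immunity, divided the lines. It had 0 counts in both libraries of NCI-H1581 and 0 and 1 count in NCI-H1581R, against 149 and 145 in NCI-H1703 and 129 and 159 in NCI-H1703R. The 2 NCI-H1703 variants overlapped (log2 -0.10, SE 0.23, edgeR adjusted p = 0.856), and no fold is given for NCI-H1581R because both of its variants were under the floor. DUSP8 (chr11:1554051-1572271), another p38 and JNK phosphatase known from brain and heart, had 56 and 32 counts (NCI-H1581), 70 and 5 (NCI-H1581R), 178 and 106 (NCI-H1703), and 63 and 26 (NCI-H1703R). The NCI-H1581R replicates were far apart, and the CPM ranges of all variants but NCI-H1703 overlapped. It fell 3.33-fold in NCI-H1703R (log2 -1.74, SE 0.45, edgeR adjusted p = 0.0761), a call that held in 6 of 12 alternatives, and its value in NCI-H1581R was log2 -0.29 (SE 0.92, adjusted p = 0.904). Without NCI-H1581R replicate 1 the value in NCI-H1581R became log2 -3.19 (adjusted p = 0.0939), since it then rested on the library with 5 counts.

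**Figure D2:**
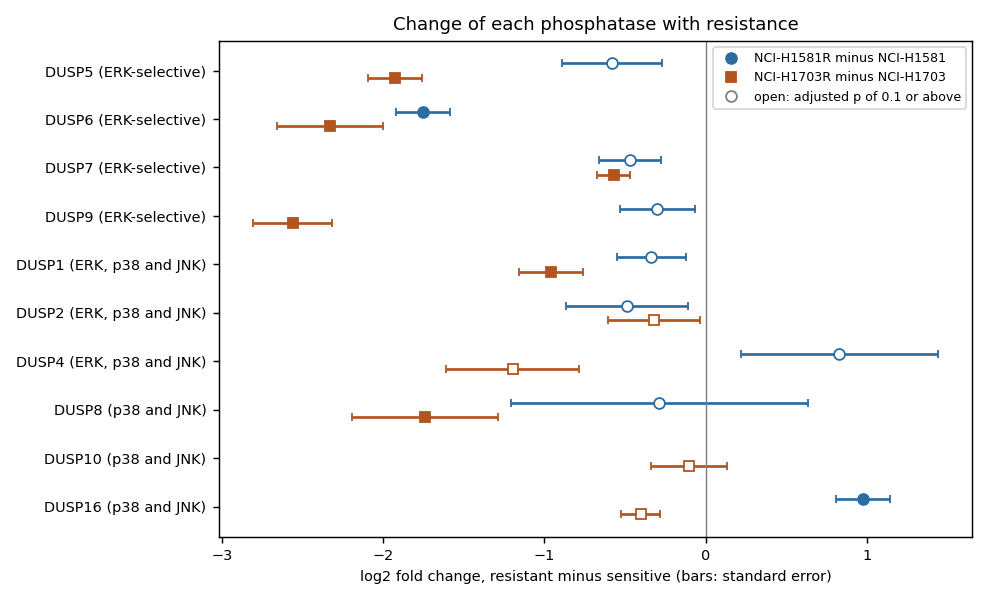
Log2 fold change with resistance (horizontal axis, resistant minus sensitive) of each MKP in NCI-H1581 (circles) and NCI-H1703 (squares), with the standard error as bars and filled symbols for an adjusted p under 0.1. The 4 ERK-selective squares are filled and run from -2.56 for DUSP9 to -0.57 for DUSP7, and the only filled circles are DUSP6 at -1.75 and DUSP16 at 0.98; DUSP10 has no circle because it was under the floor.

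Whether the lines differed in these changes was tested with an interaction term over all 8 libraries, the change in NCI-H1703 minus the change in NCI-H1581. DUSP9 (log2 -2.28, SE 0.38, edgeR adjusted p = 0.00724), DUSP16 (log2 -1.40, SE 0.19, adjusted p = 0.00303), DUSP5 (log2 -1.37, SE 0.32, adjusted p = 0.0300) and DUSP4 (log2 -2.05, SE 0.65, adjusted p = 0.0881) passed, each one lower in the NCI-H1703 change. These 4 of 10 stood against 8.47% of all genes called lower. None of the members was called higher by edgeR, with 0 at an unadjusted p under 0.05 and 0 by DESeq2, against 6.93% of all genes. The 4 came from all 3 substrate groups. The call of DUSP4 held in 2 of its 16 alternatives and was lost with a replicate block shared by the lines (adjusted p = 0.110), and DUSP5 was lost without NCI-H1703 replicate 1 (adjusted p = 0.107). For DUSP1 (log2 -0.64, SE 0.31, adjusted p = 0.262), DUSP7 (log2 -0.12, SE 0.21, adjusted p = 0.825) and DUSP8 (log2 -1.47, SE 1.15, adjusted p = 0.525), called in NCI-H1703R only, a difference between the lines was not shown.

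The sensitive lines themselves differed in the level of most MKPs, and 11444 of all 18203 genes were called between them. NCI-H1703 held more DUSP1, DUSP4, DUSP5, DUSP8 and DUSP16 RNA than NCI-H1581 and less DUSP6, DUSP7 and DUSP9, that is 5 higher and 3 lower of the 9 members other than DUSP10, where 32.5% and 30.4% of all genes were called higher and lower. The 3 lower of 9 lay near the share of all genes. DUSP10 is left out of these counts because it reached the minimum of 10 counts through the NCI-H1703 variants alone. Of the 4 ERK-selective members 3 were on the lower side. DUSP6 was 34.8-fold lower (log2 -5.12, SE 0.16, edgeR adjusted p = 3.03e-07), and DUSP5, the exception in its group, was 7.42-fold higher (log2 2.89, SE 0.16, adjusted p = 5.65e-06). DUSP10 was at least 45.2-fold higher, taking the lower NCI-H1703 replicate against the floor of 3 counts per library, a description with no test. DUSP16 was 2.45-fold higher (log2 1.29, SE 0.11, edgeR adjusted p = 5.54e-05). DUSP2 was the member that did not pass (log2 0.57, SE 0.30, adjusted p = 0.143).

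Between the resistant variants 1 of the same 9 was higher in NCI-H1703R and 3 were lower, against 25.9% and 26.7% of all genes. DUSP6 was 51.4-fold lower (log2 -5.68, SE 0.27, edgeR adjusted p = 8.83e-05), DUSP9 10.6-fold lower (log2 -3.40, SE 0.34, adjusted p = 0.00107) and DUSP7 1.62-fold lower (log2 -0.69, SE 0.19, adjusted p = 0.0338). The call of DUSP7 was lost without NCI-H1703R replicate 1 (adjusted p = 0.204) or NCI-H1703R replicate 2 (adjusted p = 0.161). DUSP5 was 2.94-fold higher (log2 1.56, SE 0.29, adjusted p = 0.00932), and DUSP10, with no test, was at least 42.8-fold higher in the lower NCI-H1703R replicate against the floor. DUSP16 had a difference of log2 -0.07 (SE 0.16, adjusted p = 0.753) and DUSP4 one of log2 0.03 (SE 0.45, adjusted p = 0.973), and both had been higher in NCI-H1703 than in NCI-H1581 among the sensitive cells. The interaction term is also the test of this shift, because it equals the line difference after resistance minus the one before it.

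**Figure D3:**
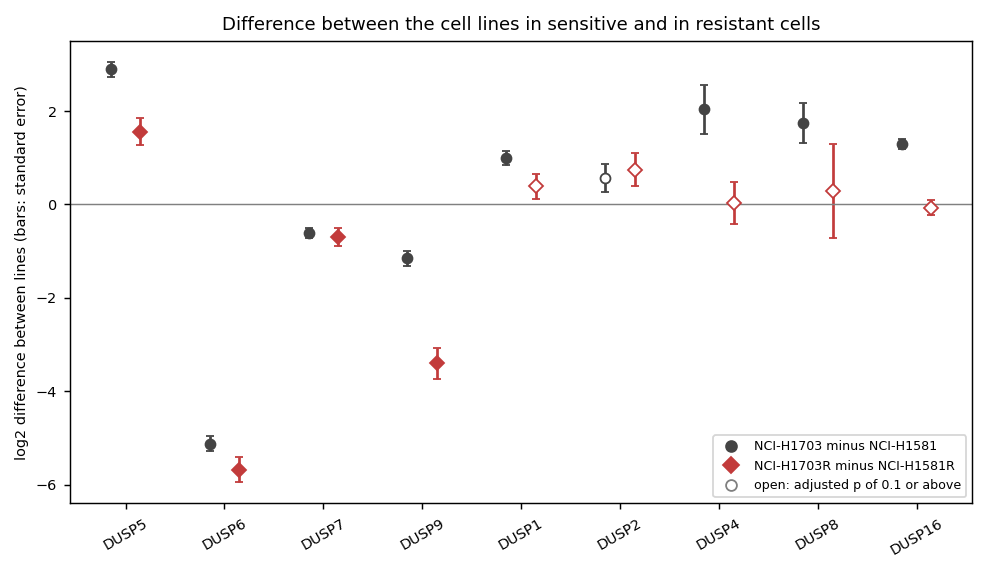
Log2 difference between the cell lines (vertical axis, NCI-H1703 minus NCI-H1581) for 9 MKPs in sensitive cells (circles) and resistant cells (diamonds), with the standard error as bars and filled symbols for an adjusted p under 0.1. DUSP16 goes from 1.29 to -0.07 and DUSP4 from 2.04 to 0.03, while DUSP9 goes from -1.15 to -3.40; DUSP10, under the floor in NCI-H1581, is left out.

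To compare levels between genes, CPM was divided by the median length of each gene's protein-coding transcripts (CPM per kb). On this scale the 10 members summed to 242 ± 7.29 CPM per kb in NCI-H1581 (SD, n = 2), 118.5 ± 10.6 in NCI-H1581R, 101 ± 5.69 in NCI-H1703 and 57.8 ± 9.14 in NCI-H1703R. The sum of the ERK-selective members was 212 ± 4.53 in NCI-H1581 and 75.1 ± 5.65 in NCI-H1581R, a level 2.82 times lower, and 32.9 ± 0.659 in NCI-H1703 and 11.9 ± 1.53 in NCI-H1703R, a level 2.77 times lower. With the longest coding transcript these ratios were 2.43 and 2.67. In NCI-H1581 DUSP6 made up 129.6 of the 137 CPM per kb of that difference, whereas in NCI-H1703 DUSP5 made up 9.33, DUSP6 4.28, DUSP9 3.91 and DUSP7 3.54 of the 21.1 CPM per kb. These parts rest on the median length, for DUSP6 1516.5 bases against 3627 for its longest coding transcript. A longer length lowers the part of DUSP6, and the order in NCI-H1703 was not worked out for it. The sum of the p38 and JNK members was 17.5 ± 1.01 in NCI-H1581 and 33.9 ± 3.37 in NCI-H1581R, and 44.7 ± 2.87 in NCI-H1703 and 33.0 ± 3.72 in NCI-H1703R. With the longest coding transcript these 4 sums were 5.42, 10.3, 15.1 and 11.1 CPM per kb. The sums are descriptions with no test.

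As shares of the 10-gene sum, the ERK-selective members made up 87.7% ± 0.772 in NCI-H1581, 63.4% ± 0.915 in NCI-H1581R, 32.7% ± 1.19 in NCI-H1703 and 20.6% ± 0.621 in NCI-H1703R (SD, n = 2). The shares of the p38 and JNK members were 7.24%, 28.6%, 44.4% and 57.3% in the same order of variants, nearly all of it DUSP16. The 3 members that act on all 3 kinases held 5.10%, 8.0%, 22.9% and 22.0%, most of it DUSP1. DUSP6 alone was 76.1% of the sum in NCI-H1581 and 45.7% in NCI-H1581R, but 5.24% in NCI-H1703 and 1.75% in NCI-H1703R. The order within a variant ran from DUSP6, DUSP16 and DUSP7 down in both NCI-H1581 variants, and with the longest coding transcript DUSP7 came second and DUSP16 fell to rank 5 in NCI-H1581 and 3 in NCI-H1581R. In NCI-H1703 it was DUSP16 and then DUSP1 and DUSP5, and in NCI-H1703R it was DUSP16, DUSP1 and DUSP7. DUSP1 (9.21 ± 2.48 CPM per kb) and DUSP7 (6.85 ± 0.173) in NCI-H1703R were neighbours whose difference lay within the spread of DUSP1. These shares depend on the transcript length used: with the longest coding transcript the ERK-selective share was 85.4%, 68.5%, 43.4% and 31.6% in the same order of variants. The p38 and JNK share was then 4.45%, 16.4%, 22.4% and 32.0%, and that of the members that act on all 3 kinases 10.1%, 15.1%, 34.2% and 36.4%. The p38 and JNK members were then no longer the leading group in either NCI-H1703 variant, and DUSP1 ranked first in NCI-H1703.

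**Figure D4:**
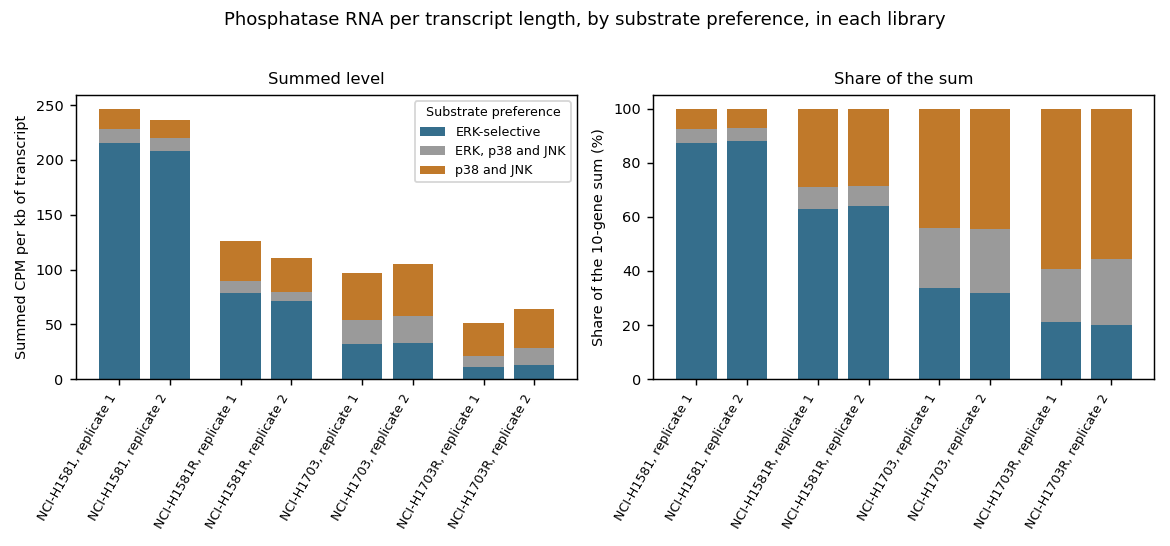
Summed CPM per kb of transcript (left, linear axis) and percent share of the 10-gene sum (right) of the MKPs by substrate preference in each of the 8 libraries. The ERK-selective share stands at 87.1% and 88.2% in NCI-H1581 and at 21.1% and 20.2% in NCI-H1703R, and the replicates of a variant lie close together.

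The kinases that these phosphatases act on were examined beside them. Of the JNK genes, MAPK9 (JNK2) was higher in NCI-H1581R, with 40.1 and 39.6 CPM before and 72.5 and 57.3 CPM after resistance (log2 0.71, SE 0.18, edgeR adjusted p = 0.0595). MAPK3 (ERK1) had values of log2 -0.02 in NCI-H1581R and 0.07 in NCI-H1703R, and was called in neither line by edgeR or DESeq2. Of the 4 p38 genes edgeR called 0 in either line. The shares over all genes were 7.63% higher and 7.44% lower in NCI-H1581R, and 7.06% and 7.67% in NCI-H1703R. For 4 genes a count of 0 is near these shares. MAPK12 in NCI-H1581R (log2 0.51, adjusted p = 0.124) and MAPK11 in NCI-H1703R (log2 0.31, adjusted p = 0.130) were the 1 of 4 at an unadjusted p under 0.05 and by DESeq2. MAPK14 (p38 alpha) had values of log2 0.14 and 0.01, MAPK8 (JNK1) of 0.55 (adjusted p = 0.109, called higher by DESeq2) and -0.24 (adjusted p = 0.211), while MAPK13 and MAPK10 were at 2.27 CPM or less in every library. The change of MAPK8 differed between the lines (interaction log2 -0.81, SE 0.17, edgeR adjusted p = 0.0199).

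Other ERK target genes, a list of 18 with feedback inhibitors and transcription factors, were set beside the MKPs, with 17 tested. In NCI-H1581R 4 were lower and 3 higher, where 7.44% and 7.63% of all genes were, with a median log2 fold change of -0.32 beside 0.04 over all genes. In NCI-H1703R 12 were lower and 1 higher, where 7.67% and 7.06% of all genes were, with a median of -1.07 beside 0.00. As with the MKPs, more members were lower in NCI-H1703R, and a difference in these counts was not tested. Of the 5 called in both lines, SPRY2, the sprouty inhibitor of receptor tyrosine kinase signalling, fell in both, from 102 and 106 CPM to 19.2 and 12.7 in NCI-H1581R (log2 -2.70, SE 0.23, edgeR adjusted p = 0.000834) and from 5.35 and 4.34 CPM to 0.56 and 0.21 in NCI-H1703R (log2 -3.62, SE 0.43, adjusted p = 0.0082). Its levels in the 4 variants stood in the same order as those of DUSP6. SPRED1, an inhibitor of RAS activation, fell in both as well (log2 -1.15, adjusted p = 0.0174, and log2 -0.62, adjusted p = 0.0444).

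The other 3 went opposite ways. EGR1, an immediate early transcription factor, fell from 47.7 and 58.7 CPM to 1.57 and 1.09 in NCI-H1581R and rose from 9.19 and 10.0 CPM to 29.6 and 40.8 in NCI-H1703R. Its change differed between the lines by log2 7.20 (SE 0.35, edgeR adjusted p = 1.51e-05). PHLDA1 and SPRED3 rose in NCI-H1581R (log2 1.96, adjusted p = 0.00439, and log2 0.67, adjusted p = 0.0975) and fell in NCI-H1703R (log2 -0.84, adjusted p = 0.0491, and log2 -1.48, adjusted p = 0.0464). Of 15 transcription factors that act on MKP promoters, a list that shares EGR1 and other genes with the one before, 2 were higher and 2 lower in NCI-H1581R (7.63% and 7.44% of all genes), and 2 higher and 4 lower in NCI-H1703R (7.06% and 7.67% of all genes).

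Other phosphatases of the same family or substrates were counted in the same way. Over all genes 7.63% were called higher and 7.44% lower in NCI-H1581R, and 7.06% and 7.67% in NCI-H1703R. The next list held 13 atypical dual-specificity phosphatases, most of which lack the kinase-docking domain of the MKPs. Of these 13 edgeR called 0 in NCI-H1581R, with 0 at an unadjusted p under 0.05 and 0 by DESeq2. In NCI-H1703R edgeR called 1, DUSP3, with a higher level (log2 0.37, SE 0.09, adjusted p = 0.0665). Of 7 tested genes for other MAP kinase phosphatases (of 8 listed), PPM1A and PPM1B, serine/threonine phosphatases, were higher in NCI-H1581R (log2 0.62 and 0.71, adjusted p = 0.0853 and 0.0484). For these 7 edgeR called 0 in NCI-H1703R, with 2 at an unadjusted p under 0.05 and 0 by DESeq2. A contrast of these counts with those of the MKPs was not tested.

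The tested genes within 2 Mb of a member were compared with it. Only genes with a mean of at least 1 CPM over the 8 libraries were kept. Over all 18203 genes tested, without that minimum, 7.63% were called higher and 7.44% lower in NCI-H1581R, and 7.06% and 7.67% in NCI-H1703R. Of the 12 near DUSP5, 0 had a lower log2 fold change than DUSP5 in NCI-H1703R, and their median log2 fold change was 0.19. Of the 68 near DUSP9, 1 had a lower value, with a median of 0.09, and of the 18 near DUSP1, 0 had a lower value, with a median of 0.05. Of the 11 near DUSP6, 3 had a lower value in NCI-H1581R (median 0.07) and 1 in NCI-H1703R (median 0.11). In NCI-H1581R the lower quartile of these 11 was -1.17, with 3 called lower and 1 higher. In NCI-H1703R it was -0.15, with 1 called lower and 0 higher. Near some other members the median leaned the way of the member in at least 1 line. The median over the 21 genes near DUSP16 was 0.52 in NCI-H1581R, where DUSP16 was at 0.98, and -0.21 in NCI-H1703R, where DUSP16 was at -0.40. Of these 21, 1 was called lower and 3 higher in NCI-H1581R, and 7 lower and 0 higher in NCI-H1703R. Of the 49 genes near DUSP8, 13 were called lower in NCI-H1581R, with a median of -0.25 beside -0.29 for DUSP8, whereas in NCI-H1703R the median was 0.02 beside -1.74. In NCI-H1581R the medians near DUSP2 and DUSP7 were -0.12 and -0.10, and DUSP2 and DUSP7 themselves were at -0.49 and -0.47. In NCI-H1703R these medians were 0.03 and 0.08, opposite in sign to DUSP2 (-0.32) and DUSP7 (-0.57). Of the 64 genes near DUSP7, 12 were called higher there and 4 lower. Near DUSP4 the median was 0.05 beside 0.83 in NCI-H1581R and -0.02 beside -1.20 in NCI-H1703R. DNA copy number was not analysed here.

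DUSP6, as the only member called in both lines, was compared with 10796 genes with a mean of at least 5 CPM over the 8 libraries. The 3 whose log2 CPM followed it most closely were SQLE, an enzyme of cholesterol synthesis (Pearson r = 0.996), EMILIN3, an extracellular matrix gene (r = 0.995), and PLLP, a membrane protein gene (r = 0.995). These values describe 8 points, 4 pairs of replicates that share their cell line, and carry no test. EMILIN3 was under the floor in both NCI-H1703R libraries (0.026 CPM in each), so its r rests in part on the small count added before the log. The change of PLLP in NCI-H1703R did not pass the test (log2 -1.21, edgeR adjusted p = 0.144). SQLE spanned a narrower range than DUSP6, from 355 and 375 CPM in NCI-H1581 to 52.0 and 58.5 in NCI-H1703R.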

How the data were processed

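RNA-seq libraries of 4 variants, 2 replicates each, were analysed. The deposited table holds estimated counts for each gene in whole numbers, which the authors made by quantifying paired reads with Salmon against GRCh38 and summing transcripts to genes with tximport, without normalisation. The submitters' processing notes also name cutadapt. The tool versions, the annotation, the length scaling and the strandedness are not given in the sources used here.

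From these counts, edgeR 4.0.16 (TMM, quasi-likelihood test, two-sided) in R 4.3.3 was fitted to the 4 libraries of each comparison, for the 18203 genes with at least 10 counts over the 8 libraries, and calls were made at a Benjamini-Hochberg adjusted p under 0.1. The interaction was fitted on all 8 libraries. The SE is the log2 fold change divided by the square root of F. Symbols, positions and transcript lengths came from GENCODE v44 for GRCh38. Replicates differed by more than sampling noise in every variant (chi-square per degree of freedom of 24.6 to 103). On simulated data with 200 of 18203 genes changed, 51.5% were recovered for resistance in NCI-H1581, 57% in NCI-H1703, 53% between the sensitive lines and 49% in the interaction, and of 2-fold changes 32%, 46%, 40% and 18%. In the same order, 17, 12, 10 and 15 unchanged genes were called beside 103, 114, 106 and 98 recovered. The changed genes were drawn from well-counted genes only, so this recovery does not carry over to low-count members such as DUSP4. In the real data 2743, 2683, 11444 and 2803 genes were called in the same order of comparisons. With fewer changed genes the Benjamini-Hochberg cut-off is stricter, so the simulated recovery is not that of the real fits.

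The members and the gene lists were chosen with earlier results of these data known. All 10 members are named, as are the MAP kinases apart from a gene that is not reported here, the listed genes called in both lines and the 3 genes most like a member called in both. Genes of other lists named one by one (KRT18, COL1A2, PTPRC, DUSP3, PPM1A, PPM1B) were picked with their values in view. By the growth protocol, replicate 2 was a repeat of the same seeding and harvest. Deviations of same-numbered libraries correlated within a line (r = 0.284 for the NCI-H1581 pair and 0.553 for the NCI-H1703 pair, over 9716 genes). Between lines r ran from -0.566 (NCI-H1581R with NCI-H1703R) to 0.0827 (NCI-H1581 with NCI-H1703). These values therefore do not show that the replicate number marks a pair. A fit with the replicate number as a block was made as well. The other alternatives were DESeq2 1.42.0, RLE normalisation, no filter, at least 10 counts in every library, a threshold of 0.05, a single fit of all 8 libraries, the longest coding transcript, each replicate left out and, chosen after seeing the data, legacy quasi-dispersions.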

Additional observations from a re-analysis of the deposited data

Results flagged for a closer look

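For 4 MKPs a difference between the cell lines in the change with resistance passed edgeR's quasi-likelihood test. The difference is the change in NCI-H1703 minus the change in NCI-H1581. The difference was log2 -2.28 for DUSP9, -1.40 for DUSP16, -1.37 for DUSP5 and -2.05 for DUSP4. The calls of DUSP9 and DUSP16 held in all 16 alternatives and that of DUSP5 in 15. That of DUSP4, on 13 to 56 counts per library, held in 2 of 16. DUSP16 had opposite signs in the 2 lines, called in NCI-H1581R only, and DUSP4 had opposite signs with no call in either line. Among the named genes outside the MKPs the difference was log2 7.20 for EGR1, -2.82 for PHLDA1, -2.17 for SPRED3, -0.81 for MAPK8, -0.68 for MAPK9 and 0.58 for MAPK11.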

How the results depend on the processing

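With 2 libraries per variant the limits are set by the spread between seedings and, for DUSP4, DUSP8 and DUSP10, by counts of 0 to 178. A single fit of all 8 libraries called 2 members lower in NCI-H1581R (DUSP6 and DUSP7), and a minimum of 10 counts in every library left 1 member higher between the resistant lines, since DUSP10 was then not tested. The difference of DUSP4 between the resistant lines became log2 -0.00399 with that minimum and -0.00521 in the single fit. With the longest coding transcript the ERK-selective share was 85.4% in NCI-H1581, 68.5% in NCI-H1581R, 43.4% in NCI-H1703 and 31.6% in NCI-H1703R, the ratio of the lengths being the only change. With the replicate block 8 members were lower in NCI-H1703R in place of 6 (6357 genes called in place of 2683), the same 2 members were called in NCI-H1581R (3293 genes in place of 2743), and the interaction called 3 members with a block shared by the lines and 4 with a block within each line. The block changed no other call of a member. At an adjusted p under 0.05 the genes called were 1793 for NCI-H1581R and 1640 for NCI-H1703R, and the single fit gave 4539 and 1730.

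Leaving out 1 library in turn gave 1 to 2 members lower and 0 to 1 higher in NCI-H1581R, 1 to 6 lower in NCI-H1703R and 2 to 3 lower in the interaction, and over all genes 1122 to 5186, 274 to 1686 and 1571 to 4141 calls. The variant left with a lone library is assumed to vary like the other one. In these fits the following values crossed 0, and the cause was not tested. In NCI-H1581R DUSP2 ran from log2 -0.90 to 0.014 and DUSP8 from -3.19 to 0.63. In NCI-H1703R DUSP2 ran from -0.80 to 0.049 and DUSP10 from -0.26 to 0.044. Between the resistant lines DUSP4 ran from -0.12 to 0.11, DUSP8 from -0.63 to 3.15 and DUSP16 from -0.24 to 0.030. In the interaction DUSP2 ran from -0.37 to 0.56, DUSP7 from -0.30 to 0.080 and DUSP8 from -2.41 to 1.43. None of these values passed the test in the 4- or 8-library fits.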
